A study of Saccharomyces cerevisiae with 8 samples.

Results

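The transcript levels of yeast cultures after 2 h in TFM were compared with those after 1 h, on 4 of the 8 arrays of a time course. Saccharomyces cerevisiae BY4741 was grown to saturation at 30 °C in YPD, a rich medium with glucose, and then exposed to TFM at 0.05 mM with isopropanol, the solvent, at 2%. The cultures were sampled after 1 h (2 RNA samples) or 2 h (2 RNA samples). Both groups therefore share strain, medium, dose and solvent, and differ in the time after addition. The other arrays hold 2 solvent-only controls from time zero and 1 RNA sample at 4 h that was run on 2 arrays. BY4741 is a MATa haploid laboratory strain in which URA3, LEU2 and MET17 are deleted and HIS3 is partly deleted. The comparison took in all 5449 genes that the array's annotation names, each read from its probe set with the highest mean. No culture with solvent alone was sampled at 1 h or 2 h, so a longer exposure to TFM and a longer time in solvent or in culture cannot be told apart here.

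The labels do not spell out TFM, an abbreviation commonly used for a trifluoromethyl nitrophenol applied against lampreys. It is known as an uncoupler, a weak acid that carries protons across the inner mitochondrial membrane and so separates respiration from ATP synthesis. Yeast cells in a saturated glucose culture have left rapid growth: genes for ribosomes are turned down, storage carbohydrates are held, and respiration becomes the main source of energy. Ribosomal proteins and the factors that assemble ribosomes are among the largest gene groups whose transcripts follow growth and stress in yeast, and genes of meiosis and spore formation are normally silent in haploid cells.

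The labelled strain was checked against its markers. URA3 read between 3.51 and 3.91 on the log2 scale in the 4 samples compared, LEU2 between 5.64 and 6.003, and MET17 between 4.36 and 4.76, near the bottom of the array. HIS3, whose probe set still gave signal, read between 11.95 and 12.13. The 7 MATa-specific genes measured averaged 11.35 and 11.37 at 1 h and 11.37 and 11.39 at 2 h. The 4 MATalpha-specific genes had mean levels of 9.05 and 9.37 at 1 h and 9.04 and 9.18 at 2 h. Both alpha-factor genes were dim, with MF(ALPHA)1 at 7.45 and 8.16 at 1 h and 8.15 and 8.35 at 2 h. SAG1, however, was bright, between 11.54 and 11.64 in the 4 samples, and STE3 read 9.60 and 10.01 at 1 h and fell (limma adjusted p = 0.0337). The 6 markers of sporulating cells averaged 9.35 and 9.40 at 1 h and 9.15 at each 2 h sample. None of those 6 passed the test.

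More genes passed as lower than as higher between 1 h and 2 h, although over all genes the change was slightly more often positive. With limma, over all 7 RNA samples and with Benjamini-Hochberg adjustment, 137 genes were lower at 2 h and 7 were higher, at an adjusted p under 0.05. Those are 2.51% and 0.128% of the genes tested, and 2.64% passed in either direction. A change of at least 2-fold was seen in 41 of the genes that fell and 1 of those that rose. The changes of the genes that fell ran from -0.45 to -2.15 on the log2 scale, the last being PFS1, a bound rather than a size, with a median of -0.80, and the rises from 0.50 to 1.20, with a median of 0.53. In 0 of the 144 called genes did the 1 h and 2 h samples overlap. Without the adjustment, 762 genes (14%) were lower and 451 (8.28%) higher at p under 0.05. The change was positive in 53.0% of all genes, and both 2 h samples were above both 1 h samples in 1556 genes (28.6%) and below them in 1479 (27.1%). With quantile normalisation of the deposited values, 50 genes were higher and 102 lower. Replicates are labelled as biological, but no label says that separate cultures were used, so a p-value here reflects the spread among these RNA samples, which may be technical. That spread was wider at 1 h (root mean square SD 0.174) than at 2 h (0.085), and the counts of calls rest on single samples. Leaving out 1 h replicate 1 gave 259 higher and 304 lower genes, and leaving out 1 h replicate 2 gave 1 and 24. Every call named here was lost without either 2 h sample, while all 144 kept their direction. Such a fit holds 1 sample at 2 h, so the spread at 2 h, narrower than at 1 h, no longer enters it. How much of the loss comes from that was not tested. Leaving out either control sample gave 10 higher and 257 lower genes. The processing used, RMA, brings arrays to a shared distribution at the level of probes, so a change in total messenger RNA would not appear. The summarised values still differed between arrays at the low end, as given below. In RNA from whole cultures, fewer cells of a kind and less RNA per cell cannot be told apart.

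The genes that fell were mostly dim ones. A gene is called dim here if its mean over the 7 RNA samples lies below 10.02, the 25th percentile of all probe sets; such genes are not shown to be expressed. Of the 1319 dim genes 96 fell (7.28%) and 0 rose, and of the other 4130 genes 41 fell (0.993%) and 7 rose. The median change was -0.12 over dim genes, -0.28 over the 545 dimmest genes and 0.03 over the rest of the table above the dim range. The low end of the arrays moved too: the 5th percentile of all probe sets was 8.39 and 8.40 at 1 h and 8.01 and 8.07 at 2 h. The 47 reporter probe sets had medians of 3.97 and 3.97 at 1 h and 4.02 and 4.15 at 2 h; the change was positive in 38 of them, and 1 was called lower when all 5814 probe sets were fitted together, and URA3, LEU2 and MET17 changed by 0.21, 0.08 and 0.19, none past the test. The part of this shift in the falls of dim genes was not tested, and bright and dim genes are given apart below.

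**Figure D1:**
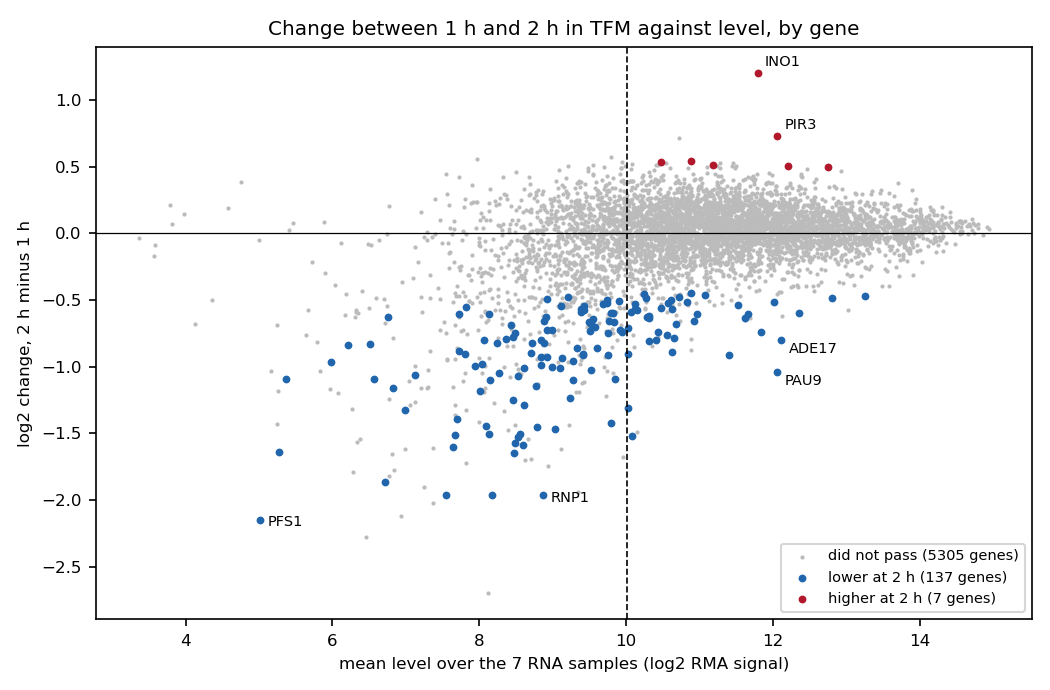
Log2 change from 1 h to 2 h in TFM (vertical axis) against the mean log2 level over 7 RNA samples (horizontal axis), 1 point per gene. Blue marks the 137 genes that fell, red the 7 that rose and grey the rest; the dashed line at 10.02 divides dim from bright genes, and most blue points lie to its left.

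INO1, which encodes inositol-3-phosphate synthase, the enzyme that makes inositol for phospholipids, rose most among all 5449 genes. It read 11.27 and 11.42 at 1 h and 12.54 and 12.55 at 2 h, so both 2 h samples lay more than a log2 unit above both 1 h samples. The rise was 1.20 on the log2 scale (SE 0.09, limma adjusted p = 0.0139), or 2.30-fold. The controls read 12.04 and 12.13, and the 4 h sample 10.62. INO1 was thus below the controls at 1 h, above them at 2 h, and lowest in the 4 h sample. Its list of 20 phospholipid and inositol genes held no other gene that passed, and the list's median change was 0.15.

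PIR3, a protein bound to the glucan of the cell wall, read 11.71 and 11.46 at 1 h and 12.24 and 12.39 at 2 h. The rise was 0.73 (SE 0.11, limma adjusted p = 0.0337), and the controls, at 12.13 and 12.12, lay nearer the 2 h samples. COQ6, a monooxygenase of ubiquinone synthesis in mitochondria, read 10.49 and 10.49 at 1 h and 11.05 and 10.996 at 2 h, a rise of 0.54 (SE 0.07, limma adjusted p = 0.0336). Its controls read 11.04 and 10.96, so the 1 h samples were the low ones. PTR2, the transporter of di- and tripeptides, read 12.50 and 12.44 at 1 h and 12.95 and 12.98 at 2 h, and rose by 0.50. STP4, a zinc finger protein, read 12.03 and 11.94 at 1 h and 12.41 and 12.57 at 2 h. Its rise was 0.51, with controls at 11.95 and 11.95 and 12.57 at 4 h, so the 2 h and 4 h samples were the high ones. The remaining rises were CPD1, a cyclic phosphodiesterase, by 0.51 and YER053C-A by 0.53. The next bright genes in order of p did not pass: CDC39, the scaffold of the Ccr4-Not complex, changed by 0.41 and OPT1, an oligopeptide transporter, by 0.51, both at a limma adjusted p of 0.0519. YGL140C changed by 0.40. CYR1, adenylate cyclase, changed by 0.53 (adjusted p = 0.0582), and BIO2, biotin synthase, by 0.43.

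ADE17, a bright gene that encodes the enzyme of the last steps of purine synthesis, fell. It read 12.53 and 12.36 at 1 h and 11.66 and 11.63 at 2 h. The change was -0.80 (SE 0.08, limma adjusted p = 0.0233), a 1.74-fold lower level at 2 h. With controls at 12.66 and 12.63 and 11.34 at 4 h, ADE17 went down at each later time. It was the 1 gene of 27 in the purine and one-carbon list to pass. The list's median change was -0.05, and IMD3, an IMP dehydrogenase, changed by -0.36 (adjusted p = 0.0701).

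PDS5, a regulator of the cohesin complex that holds sister chromatids together, read 11.20 and 11.40 at 1 h and 10.44 and 10.37 at 2 h, a change of -0.89 (SE 0.09, limma adjusted p = 0.0233). Its controls, at 10.34 and 10.40, were level with the 2 h samples. SGO1, shugoshin, which guards cohesin at centromeres, fell by 0.81, from 10.74 and 10.998 to 9.999 and 10.13. DSN1, a kinetochore subunit, fell by 0.80, from 10.92 and 10.94 to 9.98 and 10.29. NRG2, a repressor of glucose-repressed genes, fell by 0.79, from 11.004 and 11.14 to 10.24 and 10.33. All 4 were higher in both 1 h samples than in either control. The changes of the other bright genes named by the rule were -1.52 for YMR030W-A, -1.31 for YLR264C-A, -0.76 for YER137C and -0.74 for CMS1, a protein linked to ribosome assembly.

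**Figure D2:**
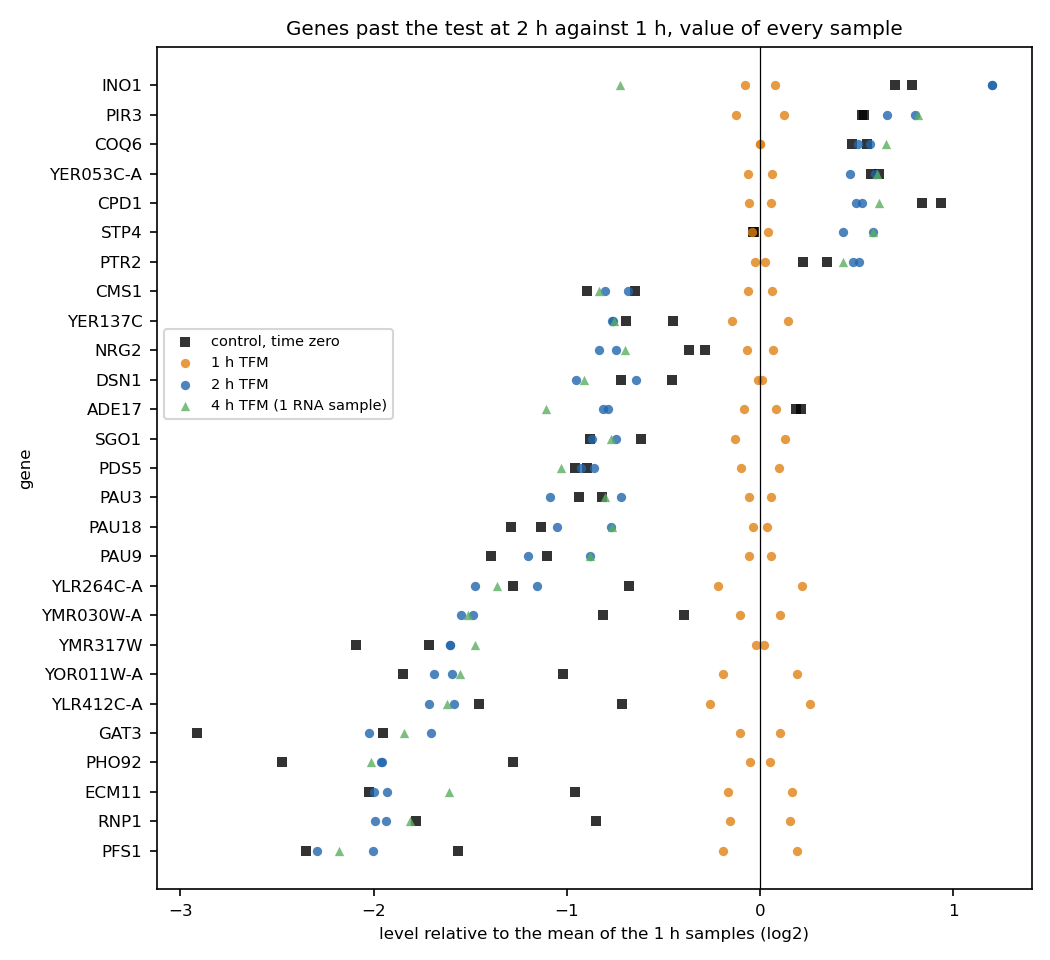
Level of each sample minus the gene's 1 h mean (log2, horizontal axis) for the genes with the largest changes that passed, ordered by change. Points are single RNA samples. The genes were chosen to have both 2 h points on 1 side of both 1 h points, and for most of them the controls lie on the same side as 2 h.

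The dim genes with the largest falls were led by PFS1. This gene, needed to form spore membranes, read 6.31 and 6.69 at 1 h and 4.21 and 4.50 at 2 h, a change of -2.15 (SE 0.27, limma adjusted p = 0.0294). The controls read 4.15 and 4.94. The files give no detection calls, and readings as low as those of PFS1 and YOR011W-A at 2 h may not be above background, so their changes are at most lower bounds on the size of the fall. ECM11, a protein of the synaptonemal complex, fell by 1.96, from 8.60 and 8.92 to 6.76 and 6.83. PHO92, a reader of methylated messenger RNA in meiosis, fell by 1.96, from 9.51 and 9.61 to 7.60 at each 2 h sample. RNP1, a protein with RNA-binding domains, fell by 1.96, and GAT3, a GATA-type zinc finger protein, by 1.86. YLR412C-A, YOR011W-A and YMR317W fell, with changes of -1.65, -1.64 and -1.60. For these 8 genes the 1 h samples were above both controls, as was the median of all dim genes, given above. Of the 8 dim genes with the smallest p-values among positive changes, none passed; the changes ran from 0.36 for EPT1, an ethanolamine phosphotransferase, to 0.49 for YPT35.

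Meiosis and sporulation had the lowest median of the 45 lists examined; without 1 h replicate 1 the seripauperins, at -0.77, were lower, as they were among bright members alone (-0.72 against -0.13). Of its 56 measured genes 10 fell and 0 rose, or 17.9%, against 2.51% of all genes, and 46 of the 56 were dim, a class in which 7.28% fell. The median level over the list was 9.17 and 9.28 at 1 h and 8.52 and 8.60 at 2 h, with controls at 8.77 and 8.90, and the median change was -0.58. Both 2 h samples lay below both 1 h samples in 46 of the 56 genes, against 27.1% of all genes; that share was not counted for dim genes alone. The change was positive in 5 of the 56 genes, against 35.9% of dim genes. Split by level, the median change was -0.74 over the dim members and -0.13 over the 10 bright ones, of which 1 fell.

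SPS1, a protein kinase of spore formation, read 8.9997 and 9.21 at 1 h and 7.54 and 7.65 at 2 h, with controls at 7.97 and 7.94. Its change of -1.51 (SE 0.10, limma adjusted p = 0.0139) shared the smallest adjusted p of the comparison with INO1. SPO11, which makes the double-strand breaks of meiotic recombination, fell by 0.80, from 9.34 and 9.28 to 8.52 and 8.50. MND1, a recombination cofactor, fell by 1.40, ZIP1, the central element protein of the synaptonemal complex, by 0.91, and MEK1, a meiotic checkpoint kinase, by 0.98. Genes of spore membranes and walls fell as well: SPO74 by 1.18, SPO20 by 0.75, OSW1 by 1.25 and the bright OSW2 by 0.59. IME4, the messenger RNA methyltransferase that promotes entry into meiosis, fell by 0.57. The regulators that drive meiosis did not pass: IME2 changed by -0.08 (limma adjusted p = 0.788) and NDT80 by -0.32 (adjusted p = 0.115). SPO20 differed from the other 9, since its controls, at 8.97 and 8.92, were above its 1 h samples, at 8.82 and 8.65. With quantile normalisation ZIP1, SPO20 and OSW1 did not pass (limma adjusted p = 0.0508, 0.0798 and 0.082).

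Ribosome assembly genes had negative medians at 2 h against 1 h in both subunit lists. For the large subunit 8 of 71 fell and 0 rose (11.3%), with a median change of -0.25, and for the small subunit 5 of 63 fell and 0 rose (7.94%), with a median of -0.14. These shares stand against 2.51% of all genes and 7.28% of dim genes, and 34 of the large and 42 of the small subunit genes were dim, so the small subunit share is close to that of dim genes. The large subunit median was -0.17 without 1 h replicate 2 and -0.34 without 1 h replicate 1. Over the large subunit list the median level was 10.26 and 10.44 at 1 h and 10.01 and 10.02 at 2 h, and the controls, at 9.73 and 9.86, were lower than both. The list median at 2 h thus lay between those of 1 h and the controls, but the 2 h means of RRP1, JJJ1, CGR1 and DBP6 were below their control means. RRP1, an early assembly factor, read 9.77 and 9.64 at 1 h and 8.86 and 8.69 at 2 h, a change of -0.93 (SE 0.11, limma adjusted p = 0.0294). ERB1, which works in processing of the large subunit RNA, fell by 0.57, from 10.61 and 10.59 to 9.99 and 10.08. SDA1 fell by 0.52 and JJJ1, a J-domain protein of late maturation, by 0.66. The helicases PRP43, DBP7 and DBP6 fell, with changes of -0.71, -0.82 and -0.47, and CGR1 fell by 1.07. In the small subunit list UTP14 fell by 0.86, UTP7 by 0.48 and PWP2 by 0.63, all 3 components of the small subunit processome. RRP36 fell by 1.51 and the helicase ROK1 by 1.09. With quantile normalisation PWP2, RRP36 and ROK1 did not pass, nor did DBP7 of the large subunit (limma adjusted p from 0.0508 to 0.0633). Of the 8 large subunit genes 4 were bright, and of the 5 small subunit genes 1, UTP7, was.

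Of 40 subunits of RNA polymerases I and III, 2 fell, both of polymerase I, which transcribes ribosomal RNA. Both are among the 15 dim members, and 7.28% of all dim genes fell. RPA12 read 10.22 and 9.91 at 1 h and 9.15 and 9.17 at 2 h, a change of -0.90 (limma adjusted p = 0.0294). RPA43 fell by 1.24, from 9.97 and 10.47 to 8.97 and 8.99. RPA34 changed by -0.65 (adjusted p = 0.056) and RPC17 by -0.73 (adjusted p = 0.0579). The list's median change was -0.03 and turned positive, 0.01, with quantile normalisation. The array also holds 17 control probe sets for ribosomal RNA. Their medians were 10.47 and 11.77 at 1 h and 11.43 and 13.03 at 2 h, so the 2 times overlapped. How far this signal follows the amount of ribosomal RNA in the cells was not tested. The change was positive in 16 of the 17, with a median of 0.57, and 0 passed; the second replicate was the higher at both times, and the part of this signal in the results on ribosome genes was not tested.

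Cytosolic ribosomal proteins, nearly all of them bright, had negative medians. In the large subunit list 4 of 75 fell (5.33%), in the small subunit list 6 of 52 (11.5%), against 2.51% of all genes and 0.993% of bright genes, and 0 rose in either. The change was negative in 73 of 75 and 50 of 52 genes, with medians of -0.25 and -0.20, against 0.01 over all genes. Both 2 h samples were below both 1 h samples in 63 and 34 genes, against 27.1% of all genes. RPS13, a protein of the small subunit with a single gene, read 13.13 and 13.16 at 1 h and 12.67 and 12.65 at 2 h. Its change was -0.49 (SE 0.07, limma adjusted p = 0.0337), with controls at 13.09 and 13.12, level with 1 h, and 11.86 at 4 h. RPS3, the other called gene without a paralog, fell by 0.47. RPL22A read 12.28 and 12.44 at 1 h and 11.63 and 11.61 at 2 h, a change of -0.74 (SE 0.09, limma adjusted p = 0.0299), with 10.52 at 4 h. RPS0A fell by 0.60, from 11.97 and 12.04 to 11.43 and 11.38. In the plot of levels by time most of the called ribosomal proteins start near their 1 h level in the controls, but RPL33B and RPS26B start nearer their 2 h level.

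Most yeast ribosomal proteins are encoded by a pair of near-identical genes, and in the pairs below 1 copy passed and the other did not. RPL24A fell by 0.52 and RPL24B changed by -0.14 (limma adjusted p = 0.406). RPS26B fell by 0.54 and RPS26A changed by -0.15. RPL33B fell by 0.52 and RPL33A changed by -0.23. RPS0B, the partner of RPS0A, changed by -0.31, and RPL22B, the partner of RPL22A, by -0.44 (adjusted p = 0.0596). The changes were -0.45 for RPS11A and -0.20 for RPS11B, -0.61 for RPL27B and -0.43 for RPL27A, and -0.60 for RPS16B and -0.44 for RPS16A, where the copy named first passed. All 8 pairs moved in the same direction, and the difference between copies was not tested. Probes may read both copies of a pair, which was not checked here. The 73 mitochondrial ribosomal proteins had 0 calls and a median of -0.05.

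**Figure D3:**
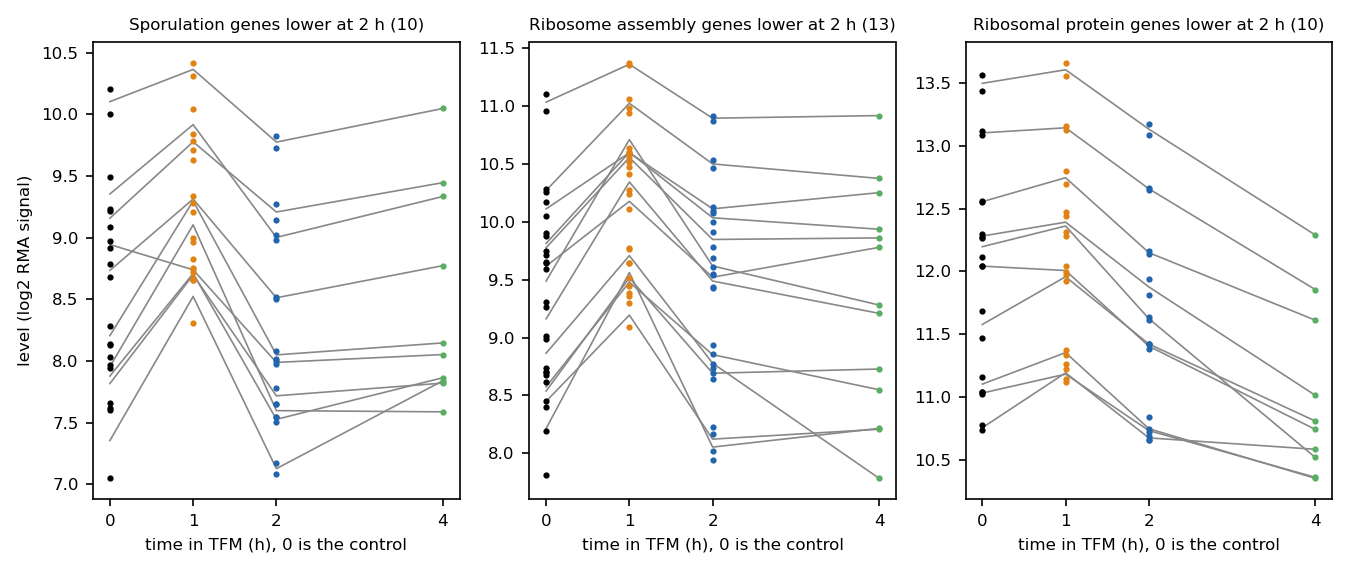
Log2 level (vertical axis) of the called genes of 3 kinds against hours in TFM, with controls at 0. Points are RNA samples and lines join the means (4 h is 1 RNA sample); the genes were chosen for being lower at 2 h than at 1 h, and most sporulation and assembly genes are highest at 1 h, while the ribosomal protein genes are lowest at 4 h.

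Seripauperins, a family of near-identical cell wall proteins linked to low oxygen and fermentation, had the second-lowest median, -0.52 over 13 genes, all negative, with 3 falls. The 3 are 23.1% of the list, against 2.51% of all genes, and all are bright, a class in which 0.993% fell. The median was -0.34 without 1 h replicate 2. PAU9 read 12.90 and 12.79 at 1 h and 11.64 and 11.96 at 2 h, with controls at 11.45 and 11.74, and fell by 1.04 (SE 0.14, limma adjusted p = 0.0336). PAU18 and PAU3 fell, with changes of -0.91 and -0.90. All 3 lie on probe sets shared between transcripts, so the signal cannot be given to 1 gene and the 3 are not independent. PAU4 changed by -0.87 (adjusted p = 0.0557).

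Mating genes moved unevenly. Of 30 measured 4 fell and 0 rose, against 2.51% of all genes and 7.28% of dim genes, and the list's median was 0.01. FUS1, a membrane protein needed for cell fusion, fell by 0.74, from 10.41 and 10.36 to 9.56 and 9.73. FUS2, also of cell fusion, fell by 0.91 and FIG1 by 0.69. STE3, the receptor for a-factor in MATalpha cells, fell by 0.96, from 9.60 and 10.01 to 8.85 and 8.85. All 4 are dim, whereas the bright MATalpha gene SAG1 changed by 0.07 and the MATa receptor gene STE2 by 0.09. With quantile normalisation FIG1 and STE3 did not pass (limma adjusted p = 0.0861 and 0.0601).

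Of 44 DNA replication and cyclin genes, 18 of them dim, 2 fell, a share between the 2.51% of all genes and the 7.28% of dim genes. POL30, the sliding clamp PCNA, read 11.43 and 11.63 at 1 h and 10.78 and 10.91 at 2 h, a change of -0.68 (SE 0.12, limma adjusted p = 0.0438). Its controls, at 10.11 and 10.35, were lower still, and the 4 h sample read 9.59. CDC45, a part of the replicative helicase, fell by 0.65, from 9.56 and 9.44 to 8.79 and 8.91. The list's median of -0.02 turned positive, 0.03, with quantile normalisation. Of 31 ergosterol genes 1 fell: HES1, an oxysterol-binding protein, with a change of -1.57, from 9.29 and 9.91 to 7.92 and 8.14. Of 21 genes of glycerol and Hog1-linked stress 1 fell, SIP18, with a change of -0.60. SIP18 did not pass with quantile normalisation (limma adjusted p = 0.0513). Both HES1 and SIP18 are dim. The shares that fell in their lists, 3.23% and 4.76%, also lie between those of all genes and of dim genes.

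The 3 highest list medians belonged to lists with 0 calls. In sulfur and methionine metabolism both 2 h samples were above both 1 h samples in 20 of 33 genes, against 28.6% of all genes, and the median change was 0.23. MUP1, the high-affinity methionine permease, read 12.14 and 11.89 at 1 h and 12.47 and 12.45 at 2 h, a change of 0.45 (limma adjusted p = 0.0802). MET13, a methylenetetrahydrofolate reductase, changed by 0.49 and the regulator MET28 by 0.39. The list's median was 0.06 without 1 h replicate 2. Amino acid permeases had a median of 0.21 over 21 genes, with 16 separated upward. The median was 0.19 over 18 trehalose and glycogen genes, 14 of them separated upward, and 0.08 without 1 h replicate 2. GPH1, glycogen phosphorylase, read 13.68 and 13.71 at 1 h and 14.03 and 14.02 at 2 h, a change of 0.33 (adjusted p = 0.0675). No test was made of these medians, and the sulfur and permease lists share some genes.

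**Figure D4:**
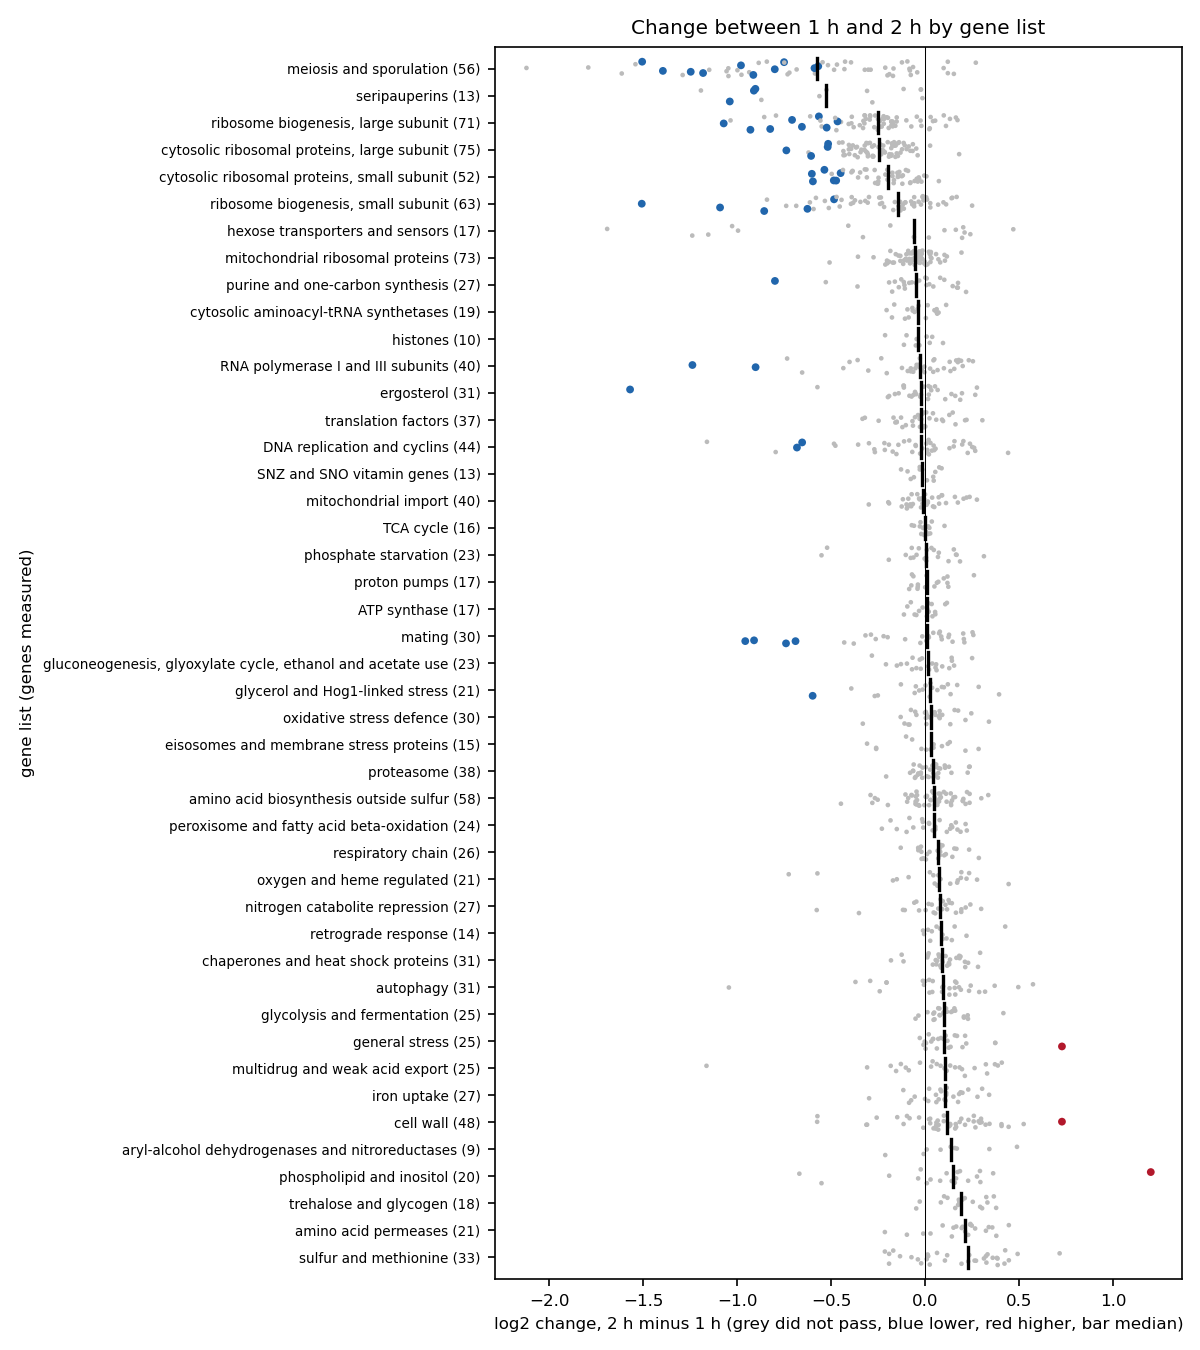
Log2 change from 1 h to 2 h (horizontal axis) of the members of each of 45 gene lists (vertical axis, number measured in brackets), ordered by median (black bar). Each point is a gene, blue if it fell, red if it rose and grey if it did not pass; the blue points gather in the sporulation, seripauperin and ribosome lists, while the TCA cycle, ATP synthase and respiratory chain lists hold grey points near 0.

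The TCA cycle, ATP synthase and respiratory chain lists, of the process that an uncoupler acts on, had 0 calls; COQ6, given above, is in none of the 3. Over 16 TCA cycle genes the change ran from -0.07 to 0.10, and over 17 ATP synthase genes from -0.11 to 0.12. The 26 respiratory chain genes ranged from -0.13 to 0.29, with the highest value in NDE2, an external NADH dehydrogenase, whose limma adjusted p was 0.23. The plasma membrane proton pump PMA1 read 13.21 and 13.21 at 1 h and 13.33 and 13.34 at 2 h, a change of 0.12 (SE 0.09, adjusted p = 0.474). CIT2, a citrate synthase that is the usual marker of mitochondrial signalling to the nucleus, changed by 0.06. ADH2, the alcohol dehydrogenase that consumes ethanol, read 13.76 and 13.94 at 1 h and 13.57 and 13.56 at 2 h, a change of -0.28 (adjusted p = 0.132), and ICL1, isocitrate lyase, changed by 0.02.

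Drug export and stress genes likewise gave few calls. The pump PDR5 read 13.74 and 13.76 at 1 h and 13.85 and 13.86 at 2 h, a change of 0.10, while SNQ2 changed by -0.03 and the weak acid pump PDR12 by 0.26 (limma adjusted p = 0.426). None of 25 multidrug and weak acid export genes passed. The glycerol symporter STL1, which read 11.56 and 11.90 at 1 h and 11.61 and 11.60 at 2 h, changed by -0.13, and its controls read 13.54 and 13.07. GPD1, the first enzyme of glycerol synthesis, changed by -0.06, CTT1, the cytosolic catalase, by 0.10, and HSP12 by 0.00. Of 25 general stress genes 1 rose, PIR3, which is also in the cell wall list, where it was the 1 call of 48. Of 17 hexose transporters and sensors 0 passed: HXT4 changed by 0.47 (adjusted p = 0.0675) while the dim HXT10, HXT11 and HXT8 changed by -0.996, -1.03 and -1.15.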

How the data were processed

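The deposited values, made by the authors with RMA per the submitters' processing notes, are taken as log2 from their range, since the log base and RMA version are not given in the sources used here. RMA corrects background, brings arrays to 1 distribution and summarises probes. Of 5814 probe sets, 5498 had 1 gene name, 0 several and 316 none, 98 of these controls or reporters. Names came from the platform annotation, with 12 symbols updated from RefSeq; no coordinates or sequences were used. For 47 genes with several probe sets the highest mean was kept.

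The 4 groups were fitted with limma 3.58.1 (lmFit, eBayes) in R 4.3.3, with 4 h arrays averaged as 1 sample (3 residual and 3.36 prior degrees of freedom), and p-values were adjusted by Benjamini-Hochberg over 5449 genes at 0.05. The 4 h sample, with n of 1, adds nothing to the spread. Arrays carry no read depth; their number limits precision.

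Genes named are those past the test with the largest changes (12 bright and 8 dim each way, filled by smallest p without overlap), up to 4 members of each list by smallest p, and fixed strain, drug, stress and carbon genes. Other called list members and ribosomal paralogs were chosen after their values were seen. Members and lists were chosen with earlier results of these data known. Lists are described by counts and medians, with no set test. Replicate numbers were not treated as pairs in the main fit, since no label states a pairing. Replicate deviations correlated 0.03 between 1 h and 2 h, 0.19 between control and 2 h and 0.10 between control and 1 h. Whether samples with the same replicate number share an effect was not tested. Alternatives were the replicate block, fewer samples, a trended prior, median centring, quantile normalisation, a filter on dim genes, all probe sets and leaving out each replicate.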

Additional observations from a re-analysis of the deposited data

Results flagged for a closer look

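The ribosomal RNA control probe sets lie outside the comparison of genes and read above the controls in all 4 samples compared, which is why they are singled out. Their median over 17 probe sets was 10.5 in 1 h replicate 1 and 11.8 in 1 h replicate 2, then 11.4 in 2 h replicate 1 and 13.0 in 2 h replicate 2, against 9.76 and 9.97 in the controls. The 1 h and 2 h samples overlap, and 0 of the 17 passed limma between 1 h and 2 h. Groups of 2 are too small for the check on single samples that stand apart.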

How the results depend on the processing

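With 7 genes higher and 137 lower as reported, the replicate block gave 20 and 281, with all 144 calls among them. Fitting only the groups compared gave 10 and 257, a trended prior 21 and 193, median centring 8 and 158, and every named probe set 7 and 136. Quantile normalisation gave 50 and 102, so 32.9% of calls were higher against 4.86% as reported, and 98 of the 144 calls were shared. Besides the genes given by list above, STP4, YLR264C-A and BMT5 were among the calls lost with it (limma adjusted p = 0.0547, 0.0601 and 0.0536). With genes above the 25th percentile alone, 9 rose and 52 fell, out of fewer genes tested. Leaving out the 4 h sample, or using its first array, gave 7 and 137 by construction, since it adds no residual. Leaving out each replicate gave 0 to 259 higher and 0 to 304 lower genes. The direction of every call tested held in each setting except quantile normalisation, where 143 of 144 held; genes above the 25th percentile took in 48 of the 144. The exception, YFL040W, went from -0.63 to 0.13. INO1, ADE17 and PDS5 passed in 12 of 14 settings each and failed only without either 2 h sample. Dim genes had 13 settings, since the filter on dim genes left them out. Of these, SPS1, YMR317W, SPO11, RPA12, CCZ1, FEX2, CTR3 and SPR1 passed in 11. They too failed only without either 2 h sample, so the counts do not rank them below the bright genes. MCM10 passed in the fewest, 5 of 13. Some settings gave the same counts of calls, so they are not independent checks. The change of INO1 ranged from 1.12 to 1.28. Signs also turned in genes near 0 that did not pass. Over the settings without 1 replicate, SNQ2 ranged from -0.068 to 0.013, STL1 from -0.30 to 0.038, GPD1 from -0.23 to 0.12, HSP12 from -0.087 to 0.083 and ICL1 from -0.040 to 0.071. ICL1 was also -0.013 with median centring and -0.018 with quantile normalisation. The causes of these differences were not tested. Signal over background limits what dim genes can show.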

Other observations

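Of the 137 genes that fell, 47 were in a gene list, and the following others were picked after their values were seen, with no test beyond the limma fit over all genes. FEX1 and FEX2, the plasma membrane exporters of fluoride, fell, with changes of -0.68 and -1.14. FEX1 read 9.98 and 9.99 at 1 h and 9.24 and 9.37 at 2 h, with controls at 9.48 and 9.58, and FEX2 read 9.73 and 9.34 at 1 h and 8.31 and 8.48 at 2 h, with controls at 8.67 and 8.94. Both are dim, and the probe sets of FEX1 and GEX1 are shared between transcripts. Metal and glutathione transport genes that fell were the copper transporter CTR3 (-0.70), the reductase FRE7 (-0.99) and the glutathione exchanger GEX1 (-0.93), all dim.

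GIN4 and KCC4, related kinases of the bud neck, fell, with changes of -0.53 and -0.64. GIN4, which is bright, had 1 h levels of 10.72 and 10.71, 2 h levels of 10.21 and 10.16 and control levels of 9.61 and 9.70, so the 2 h samples lay between. NCL1, a transfer RNA methyltransferase, fell by 0.65, from 11.42 and 11.33 to 10.71 and 10.72, TRM11, another, by 0.99, and BMT5, a ribosomal RNA methyltransferase, by 0.86. Further sporulation genes outside the list fell, among them SMA1 (-1.45), MUM3 (-1.42), SPR1 (-0.73) and SPR3, a septin of spore formation (-0.58).

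Genes known by a systematic name alone were 499 of the genes tested (9.16%) and 27 of the 137 that fell (19.7%). Among dim genes they were 18.0%, and 23 of the 96 dim genes that fell (24.0%). Of 218 probe sets with no gene name, 2 were higher and 6 lower when all 5814 probe sets were fitted together. In that fit 7 of the 5498 named probe sets were higher and 129 lower.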
